A study of Mus musculus with 5 samples.

Results

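The Krüppel-like factor (KLF) genes Klf2, Klf3, Klf4, Klf6, Klf7, Klf10, Klf12 and Klf13 were followed through 5 lists of acetylated-histone peaks from cultured mouse memory-type CD8+ T cells. These 8 genes were taken by name, out of 21938 protein-coding genes of the GRCm38 mouse genome. A peak belonged to a gene when it lay in the gene body or within 10000 bp of it. Of all 8 genes, 7 had such a peak in at least 1 library, and 32 peaks were found in all, which merged into 10 regions out of 18410 in the genome.

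Chromatin was immunoprecipitated with an antibody against acetylated lysine on histones (the labels name acetyl K18) and sequenced (ChIPseq), and broad peaks were called in each library on its own. The groups were wildtype cells (libraries Wildtype 1 and Wildtype 2) and cells deficient in pyruvate dehydrogenase (PDH_Mutant 1, PDH_Mutant 2 and PDH_Mutant 3), called TPdh-/- in the study. All were CD8+ T cells of memory type, activated in culture and then kept with the cytokine IL-15, the agent used in the study to obtain memory-type (TM) cells. The comparison asked how loss of an enzyme that makes acetyl-CoA, the donor of acetyl groups, bears on histone acetylation in these cells.

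In TPdh-/- mice the floxed Pdha1 gene, which encodes a subunit of pyruvate dehydrogenase, is deleted by a Cre recombinase under the Cd4 promoter, so the deletion starts in the thymus and is shared by CD4+ and CD8+ T cells. Young adult mice of both sexes were used in the study, but the sex and the number of mice behind each library were not given in the sources used here. The study describes its samples as discrete but does not name the mice or cultures behind each library, and its legend gives more samples per condition than were analysed here, so a p-value measures only the spread between these libraries, which may be technical.

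KLF proteins are zinc finger transcription factors that bind GC-rich and CACCC-type sequences, and each recruits partners that add or remove histone acetylation. KLF2, KLF4, KLF6 and KLF7 are mainly known as activators and work with acetyltransferases, KLF3 and KLF12 are repressors that bind the corepressor CtBP, and KLF10 and KLF13 bind the corepressor Sin3a. In T cells the family is best known for KLF2, which holds resting cells in quiescence and keeps them circulating through lymph nodes. Acetylated histones mark active promoters and enhancers, and a peak list records where that mark was called, not how much RNA the gene makes.

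The stretches below were chosen because they lie in the regions on which the comparison turned. The first pair lay whole inside a peak of all 5 libraries. The next also lay in all 5, in the one KLF region shared by them whose folds did not overlap between the groups. It is named for the inner Klf3 start but lies past that start and does not hold it. The Klf13 and Klf2 promoters were mostly or wholly outside the peaks, and the last is a site past the Klf2 gene end. Sequences are from RefSeq, build GRCm38.p6, read 5′ to 3′, with annotated exons of the gene left out. Capitals mark CACCC or GGGCGG, searched on both strands, so they also appear as GGGTG or CCGCCC.
Klf7 promoter, chr1:64121492-64121639, minus strand: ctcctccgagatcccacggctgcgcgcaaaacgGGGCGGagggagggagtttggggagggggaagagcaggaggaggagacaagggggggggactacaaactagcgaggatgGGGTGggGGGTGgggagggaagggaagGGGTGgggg
Klf6 promoter, chr13:5861239-5861481, plus strand: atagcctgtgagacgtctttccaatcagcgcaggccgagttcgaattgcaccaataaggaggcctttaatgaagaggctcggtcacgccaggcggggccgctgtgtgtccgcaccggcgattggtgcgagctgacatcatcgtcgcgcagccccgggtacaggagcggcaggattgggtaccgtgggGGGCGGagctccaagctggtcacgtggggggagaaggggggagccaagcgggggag
Klf3 inner start, chr5:64812508-64812652, plus strand: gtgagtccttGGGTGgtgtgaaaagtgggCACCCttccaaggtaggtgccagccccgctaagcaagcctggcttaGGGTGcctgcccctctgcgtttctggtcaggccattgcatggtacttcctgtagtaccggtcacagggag
Klf13 promoter, chr7:63938916-63939165, minus strand: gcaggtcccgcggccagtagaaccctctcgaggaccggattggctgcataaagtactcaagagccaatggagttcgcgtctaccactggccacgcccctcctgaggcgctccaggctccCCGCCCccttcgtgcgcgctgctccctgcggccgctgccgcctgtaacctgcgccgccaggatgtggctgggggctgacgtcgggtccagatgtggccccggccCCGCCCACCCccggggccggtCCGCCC
Klf2 promoter, chr8:72318812-72319032, plus strand: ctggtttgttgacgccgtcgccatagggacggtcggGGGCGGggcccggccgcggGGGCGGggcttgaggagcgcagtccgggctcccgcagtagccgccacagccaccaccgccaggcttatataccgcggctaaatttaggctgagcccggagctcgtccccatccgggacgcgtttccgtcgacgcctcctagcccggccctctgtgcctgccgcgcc
Klf2 distal region, chr8:72322072-72322371, plus strand: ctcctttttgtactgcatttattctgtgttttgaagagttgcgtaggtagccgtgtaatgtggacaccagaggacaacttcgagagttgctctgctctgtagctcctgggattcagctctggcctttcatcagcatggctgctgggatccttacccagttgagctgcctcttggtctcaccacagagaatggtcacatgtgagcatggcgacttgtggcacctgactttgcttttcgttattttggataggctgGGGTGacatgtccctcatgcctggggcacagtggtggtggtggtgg

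RefSeq promoter windows (250 bases before to 50 after a start, 300 in all) matched 7 of the 8 genes. The missing one was Klf10. GGGCGG stood in 6 of the 7 windows and CACCC in 5, against 35.7% and 57.5% of all 32851 promoter windows. Overlapping matches of the 2 motifs occurred once in Klf13 and once in Klf3. The windows ranged in GC content from 45.7% at Klf12 to 76.7% at Klf3, and the median over all promoter windows was 52.7%. The Klf12 window (chr14:100149747-100150046) lies inside the gene, away from its outermost start at 100284679. The windows of Klf7 (58.3% GC) and Klf6 (63% GC) were covered in 5 libraries. Those of Klf13 (72%), Klf4 (74.3%) and Klf3 were covered in 1 each, and those of Klf2 (69.3%) and Klf12 in 0. A link between GC content and calls was not tested. Away from promoters, the distal window of Klf2 held 1 CACCC match and no GGGCGG, and over the windows of all 18410 merged regions these motifs stood in 53.4% and 26.3%.

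The lists differed in length before any gene was considered. Wildtype lists held 15962 and 8859 peaks and PDH_Mutant lists held 4920, 5419 and 9418, so the longest was of the wildtype group and PDH_Mutant 3 was longer than Wildtype 2. For peaks of the same fold (2.4 to 2.6), the median −log10 p was 6.01 and 4.92 in wildtype and 4.85, 4.93 and 5.60 in PDH_Mutant lists. In that range it was highest in the 2 longest lists. For folds of 1.7 to 1.9 it was 4.95 and 4.87 in wildtype, above every PDH_Mutant list. The highest PDH_Mutant value there was 4.72, in PDH_Mutant 3. In this lower range the order did not follow list length, since PDH_Mutant 3 was longer than Wildtype 2. The number of reads was not in the lists, so the depth behind them is unknown and counting error could not be put on any value. CD8 T cell markers had a promoter peak (within 3000 bp of a start) for 8 and 6 of 8 genes in wildtype and 3, 4 and 6 in PDH_Mutant lists. Over all coding genes the promoter shares were 42.1% and 24.8% in wildtype and 15.3%, 16.5% and 27.9% in PDH_Mutant lists. Of myeloid and NK cell markers, the single promoter peak was that of Eomes in Wildtype 1, whereas of 3 CD4 T cell markers (Cd4, Zbtb7b, Foxp3) 3 and 2 had one in the wildtype lists and 0 in each PDH_Mutant list. Away from its promoter, the myeloid marker Cd14 had a peak in the gene body or within 10000 bp of it in all 5 libraries (percentiles 62.2 to 96.6). In that window the myeloid marker Itgam had one in all but PDH_Mutant 2 (48.3 to 86.7). The NK cell marker Klrb1c had one in Wildtype 1 and PDH_Mutant 3 (33.4 and 30.4), and Cd4 had one in PDH_Mutant 3 (18.6). With 3 genes, the 0 counts are too small to set apart from the promoter shares of the PDH_Mutant lists. A Pdha1 promoter peak was called in Wildtype 1 only, so the lists could not check the genotype labels.

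Acetylated histones were called at more KLF genes in both wildtype lists than in 2 of the 3 PDH_Mutant lists. A peak was present at 7 and 6 of the 8 genes in Wildtype 1 and 2 and at 3, 4 and 6 in PDH_Mutant 1, 2 and 3. Over all protein-coding genes the shares were 54% and 36.4% in wildtype and 23.2%, 24.7% and 39.2% in PDH_Mutant lists, in the same order as the KLF counts but for the tie of Wildtype 2 with PDH_Mutant 3. The mean was 6.5 ± 0.707 genes (SD, n = 2) in wildtype and 4.33 ± 1.53 (n = 3) in PDH_Mutant, a difference of 2.17 genes that was not past the threshold (exact permutation test, two-sided, p = 0.4, and 0.5 after Benjamini-Hochberg adjustment over 5 results). With 2 libraries against 3, the smallest two-sided p is 0.2, so no comparison here could pass 0.05. The groups overlapped, since PDH_Mutant 3 equalled Wildtype 2.

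**Figure D1:**
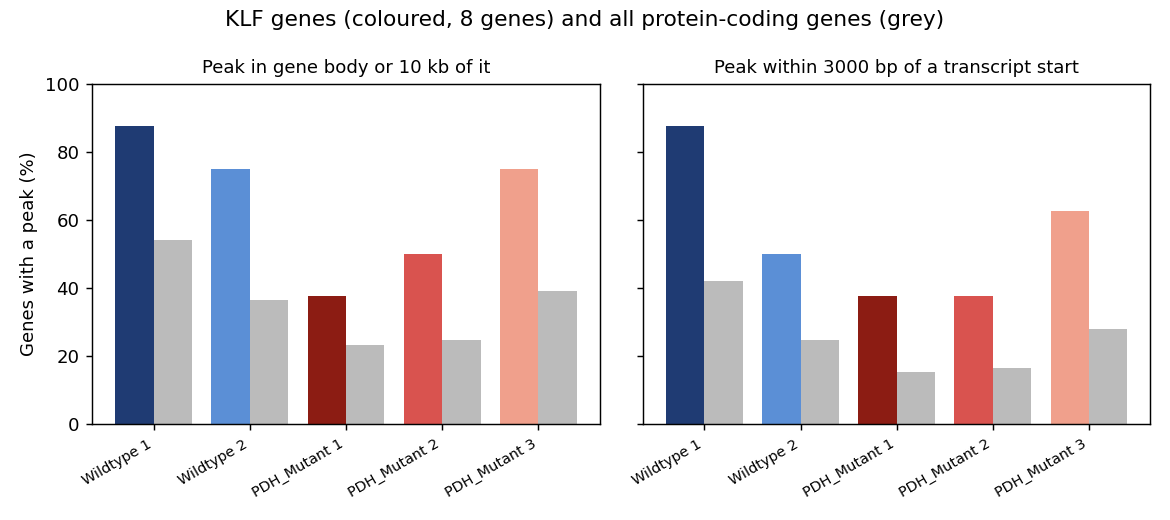
Share of genes with a peak (%, vertical axis) in each of the 5 libraries, for the 8 KLF genes (coloured bars) and all 21938 protein-coding genes (grey bars), counted within the gene body or 10000 bp of it (left) or within 3000 bp of a transcript start (right). KLF bars stand above the grey bars in every library, and both kinds of bar are lowest in PDH_Mutant 1 and PDH_Mutant 2.

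Counts of promoters gave the same order with wider overlap. A promoter peak was called at 7 and 4 KLF genes in wildtype and at 3, 3 and 5 in PDH_Mutant lists, beside 42.1%, 24.8%, 15.3%, 16.5% and 27.9% of coding genes in Wildtype 1 and 2 and PDH_Mutant 1, 2 and 3. The means were 5.5 ± 2.12 (n = 2) and 3.67 ± 1.155 (n = 3), and the difference of 1.83 genes fell within the spread (exact permutation p = 0.4, adjusted 0.5). PDH_Mutant 3 had more KLF promoters called than Wildtype 2.

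Number and covered length of KLF peaks went the same way. There were 10 and 7 peaks in wildtype and 3, 4 and 8 in PDH_Mutant lists, covering 18705 and 9408 bp and 4133, 5850 and 14820 bp. On the log2 scale wildtype exceeded PDH_Mutant by 0.87 in number and by 0.90 in length (exact permutation p = 0.4 and adjusted 0.5 for each), and both measures overlapped between the groups. As a share of its list the difference was gone: KLF peaks made up 0.626 and 0.790 of every 1000 peaks in wildtype and 0.610, 0.738 and 0.849 in PDH_Mutant lists, a log2 difference of -0.0448 (exact permutation p = 1). Per Mb covered, KLF peaks took 926 and 951 bp in wildtype and 852, 1059 and 1365 bp in PDH_Mutant lists (log2 difference -0.19, exact permutation p = 0.6). The scaling by list length was chosen after seeing the data. List length was lower in PDH_Mutant 1 and PDH_Mutant 2 than in both wildtype lists, but PDH_Mutant 3 was longer than Wildtype 2. Promoter calls of the CD4 T cell markers numbered 3 and 2 in wildtype and 0 in each PDH_Mutant list, too few to set apart from the promoter shares. The part of the markers in the difference was not tested.

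The genes fell into 3 patterns: Klf3, Klf6 and Klf7 had a peak in all 5 libraries (17.1% of coding genes did), Klf2, Klf4, Klf10 and Klf13 in some, and Klf12 in none (43.9% of coding genes). Klf2 and Klf13 were called in both wildtype and only 1 PDH_Mutant library, a pattern (both wildtype, at most 1 PDH_Mutant) held by 10.1% of coding genes. No KLF gene was called in a PDH_Mutant library without a wildtype library, as for 1.3% of coding genes. Of the 7 genes with a peak, 0 had more bp covered in both wildtype than in every PDH_Mutant library (25.8% of coding genes with a peak) and 0 had less (0.0569%). By covered length, then, the groups overlapped at every KLF gene with a peak.

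**Figure D2:**
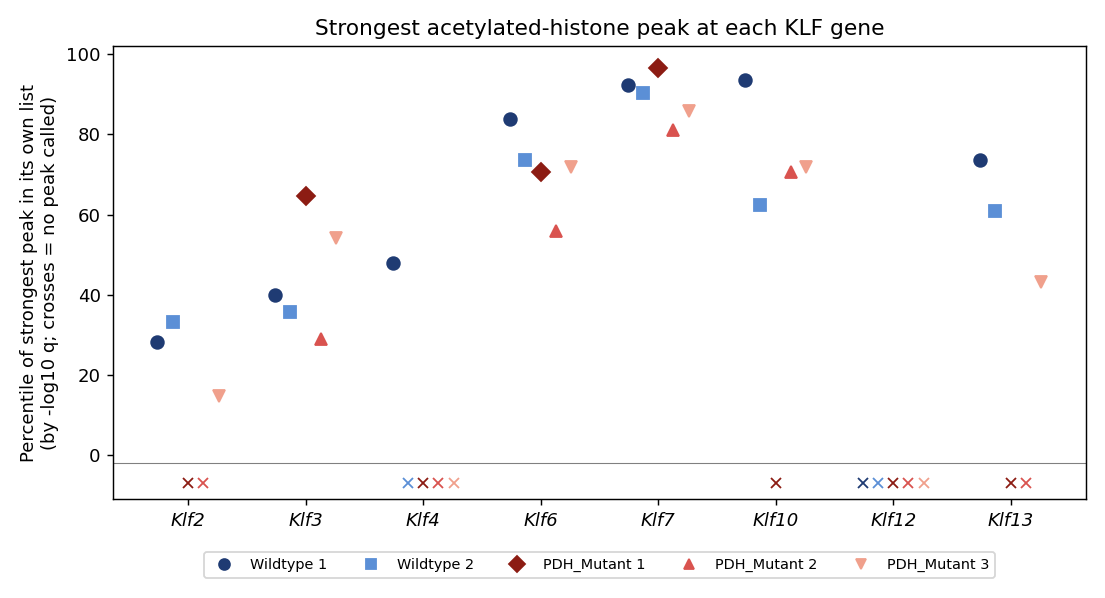
Percentile of each gene's strongest peak in its own list by −log10 q (vertical axis, 0 to 100) for the 8 KLF genes, with 1 point per library and crosses for no call. Klf7 has the highest mean (89.2), Klf2 the lowest of the called genes (25.4), and Klf12 shows crosses alone.

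Klf7, first known for its role in the growth of neurons, carried the strongest KLF peak in 4 of 5 lists. The percentile used here is the share of peaks in the same list with a −log10 q at or below that of the peak. The Klf7 peak ranked 1216 of 15962 and 859 of 8859 in Wildtype 1 and 2, and 173 of 4920, 1031 of 5419 and 1346 of 9418 in PDH_Mutant 1, 2 and 3. These ranks are percentiles of 92.4 and 90.3 in wildtype and 96.5, 81.0 and 85.7 in PDH_Mutant lists, so the highest and the lowest were both PDH_Mutant libraries. Fold enrichment over background was 2.41 and 2.57 in wildtype and 2.91, 2.47 and 2.47 in PDH_Mutant lists, and width 1963 and 1650 bp against 1564, 1534 and 1690 bp.

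Neither measure of Klf7 separated the groups. Mean fold was 2.49 ± 0.114 (n = 2) and 2.62 ± 0.255 (n = 3, exact permutation p = 0.8), and mean width 1806.5 ± 221 and 1596 ± 82.8 bp (exact permutation p = 0.4). The gene lies at chr1:64029447-64122282 on the minus strand, and all 5 peaks ran from just before its outermost start into the first part of the gene (Wildtype 1 from -121 to 1841 bp relative to that start, PDH_Mutant 2 from -56 to 1477 bp). They shared 1529 bp, 77.9% of the merged region, across untranslated and coding sequence of the first exons, and the printed Klf7 promoter stretch with its 3 CACCC matches lay inside that shared part.

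By summed difference of this percentile over the 5 libraries, the 3 coding genes most like Klf7 among 3758 others with a peak in every library were Rmi2 (10.2 percentile points), Zfp62 (10.2) and Atf3 (10.2). Rmi2 stood at 93.5, 94.4, 96.7, 83.9 and 83.9 in Wildtype 1 and 2 and PDH_Mutant 1, 2 and 3. The likeness is a description of rank in 5 lists.

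Klf6, an activator expressed in most tissues and linked to growth control, had the widest peak shared by all 5 libraries. Its width was 2873 and 2542 bp in wildtype and 1793, 2490 and 2636 bp in PDH_Mutant lists, which stood between the 94.2 and 98.8 percentile of width in their lists. Fold was modest at 2.12 and 2.18 in wildtype and 2.31, 2.03 and 2.06 in PDH_Mutant lists. The peak thus belonged among the widest of each list without a high fold, as the plot of width against fold shows. By −log10 q it stood at percentile 83.8 and 73.5 in wildtype and 70.5, 56.0 and 71.9 in PDH_Mutant lists.

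The Klf6 percentiles of the groups did not overlap. The means were 78.6 ± 7.26 (n = 2) and 66.1 ± 8.80 (n = 3), and the difference of 12.5 points had the smallest p the design allows (exact permutation, two-sided, p = 0.2, adjusted 0.771 over 9 tests of 3 regions). Over the 3093 regions with a single peak in every library, the percentile of both wildtype lists was above all PDH_Mutant lists in 29.5% and below in 1.45%, beside 1 and 0 of the 3 KLF regions. Widths overlapped, with means of 2707.5 ± 234 and 2306 ± 451 bp (exact permutation p = 0.4), and mean folds were 2.15 ± 0.0432 and 2.13 ± 0.150 (p = 1, exact permutation). The gene is at chr13:5861482-5870394, plus strand, and its peaks spanned the start on both sides, from -950 to 1922 bp in Wildtype 1 and from -748 to 1044 bp in PDH_Mutant 1.

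Klf3, a repressor that recruits CtBP, was the KLF gene with most regions. Its gene body (chr5:64803388-64832901, plus strand, 9 annotated transcripts) held 3 regions. The first lay at or just past the outermost start, and the next at or just past an inner start (peaks beginning 8274 to 9046 bp from the outermost start). The last lay further inside the gene. The region at the inner start had a peak in all 5 libraries, though those of PDH_Mutant 1 and Wildtype 2 began 7 and 50 bp past that start. The outer region was called only in Wildtype 1 and PDH_Mutant 3. In Wildtype 1 (4112 bp, the widest KLF peak, fold 1.73) it spanned the outermost start. In PDH_Mutant 3 (2090 bp, fold 1.92) it began 525 bp past the outermost start in an intron. That outer region also overlaps the noncoding genes Gm20033 and C230096K16Rik, so its signal cannot be told apart from theirs.

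At the inner Klf3 start, fold was lower in both wildtype lists than in every PDH_Mutant list. It was 1.85 and 1.95 in wildtype and 2.51, 2.15 and 2.08 in PDH_Mutant lists, with means of 1.90 ± 0.0715 (n = 2) and 2.25 ± 0.228 (n = 3, exact permutation, two-sided, p = 0.2, adjusted 0.771 over 9 tests). This was the only one of the 3 regions called in all 5 libraries whose folds did not overlap. Width did not follow, at 1682 and 909 bp in wildtype and 776, 1076 and 1062 bp in PDH_Mutant lists (exact permutation p = 0.6). Ranks were 9595 of 15962 and 5700 of 8859 in wildtype, and 1744 of 4920, 3854 of 5419 and 4308 of 9418 in PDH_Mutant lists, so the percentile ran from 28.9 in PDH_Mutant 2 to 64.6 in PDH_Mutant 1 and the groups overlapped.

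Across the genome, 3093 regions had a single peak in each of the 5 libraries. Both wildtype folds lay below all PDH_Mutant folds in 11.6% of them and above in 12.7%, against 1 of 3 KLF regions below and 0 above, a count too small to set apart from those shares. Width behaved otherwise, being above in 33.5% and below in 0.291% of these regions, and of the 3 KLF regions 0 separated either way.

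**Figure D3:**
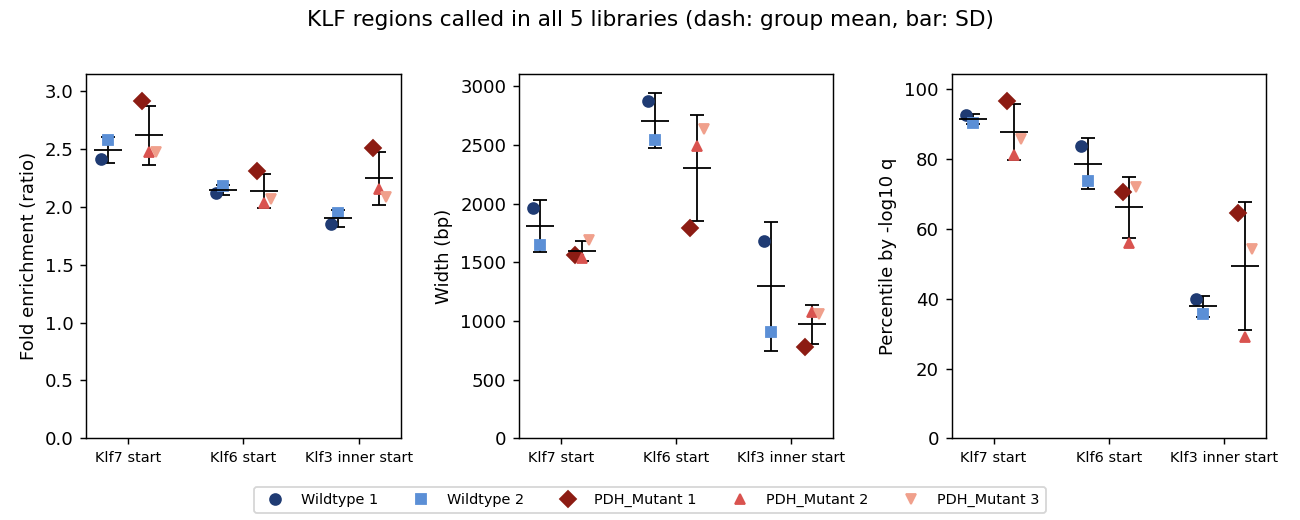
Fold (ratio, left), width (bp, middle) and percentile by −log10 q (right) of the peaks at the Klf7, Klf6 and inner Klf3 starts, with 1 point per library, a dash for the group mean and a bar for the SD (n = 2 wildtype, n = 3 PDH_Mutant). Only the Klf3 folds (wildtype 1.90 ± 0.0715, PDH_Mutant 2.25 ± 0.228) and the Klf6 percentiles (78.6 ± 7.26 and 66.1 ± 8.80) keep the groups apart.

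The third Klf3 region, beginning 15471 bp (Wildtype 1) and 15494 bp (Wildtype 2) inside the gene over exons of noncoding transcripts, was the single KLF region called in both wildtype and no PDH_Mutant library (5.92% of merged regions). Its peaks were 1483 and 1177 bp wide with folds of 1.96 and 2.08, at percentiles of 35.6 and 21.9 in their lists. It was thus a weak call in the libraries that had it, and one not called can lie just under the threshold.

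Klf13, a Sin3a-binding factor known in activated T cells for control of Ccl5, had peaks in both wildtype libraries and PDH_Mutant 3, as did Klf2. That combination of libraries held 2 of the 10 KLF regions and 9% of merged regions. At Klf13 (chr7:63886351-63938915, minus strand) the wildtype peaks ended 440 and 443 bp before the start, with widths of 1291 and 1185 bp, folds of 1.86 and 1.92 and percentiles of 73.5 and 60.8. The PDH_Mutant 3 peak was 3654 bp wide and ran from -1536 to 2117 bp across the start, with a fold of 1.80 and a percentile of 43.2. Only that broad peak took in the printed promoter stretch and the first exon. In PDH_Mutant 1 and 2 the nearest peak was 35203 and 69069 bp from the gene.

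Klf2, the quiescence and trafficking factor, was called at its 3′ end and not at its start. The gene spans 2624 bp at chr8:72319033-72321656 on the plus strand, and the region began 2112 bp from the start in Wildtype 1, at the 3′ end, and 3018 and 3068 bp from it in Wildtype 2 and PDH_Mutant 3, past the gene end. Folds were 1.67, 1.84 and 1.78, the first being the lowest of all KLF peaks, and percentiles 28.3, 33.2 and 14.8. The nearest peak in PDH_Mutant 1 and 2 was 78370 and 148862 bp away. The next coding start, that of Gm10282, was 15885 bp from the region. No list had a peak over the Klf2 start itself, and Klf2 counts among the 7 promoter genes of Wildtype 1 only because its peak there began within 3000 bp of the start.

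Klf10, a repressor induced by TGF-β, had its main peak outside the gene. The gene is at chr15:38291463-38300706, minus strand, and the distal region lies past its end, within the 10000 bp window. It was called in every library but PDH_Mutant 1, with folds of 2.74 and 2.46 in wildtype and 2.60 and 2.48 in PDH_Mutant 2 and 3. In Wildtype 1 it ranked 1038 of 15962, above Klf7 and so the strongest KLF peak of that list. Percentiles were 93.5 and 62.4 in wildtype and 70.5 and 71.8 in PDH_Mutant 2 and 3, with no order by group.

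Which gene the distal Klf10 region acts on is not in the data. The start of the annotated gene Gm49314 lay 5491 bp from the region, while the nearest Klf10 start lay at least 15662 bp from its peaks. The Klf10 start region was called only in Wildtype 1 (783 bp, fold 2.12, percentile 13.3) and PDH_Mutant 3 (1333 bp, fold 2.27, percentile 4.35), by percentile the weakest of all KLF calls. The Wildtype 1 peak lay 342 to 1124 bp past the outermost start, over an inner start. Only the PDH_Mutant 3 peak spanned the outermost start, and the peaks shared 129 bp. Together with the outer Klf3 region, the Klf10 start region made 2 of 10 KLF regions held by Wildtype 1 and PDH_Mutant 3 alone, the 2 longest lists, as were 7.52% of merged regions.

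Klf4, which restrains proliferation of CD8+ T cells and is a pluripotency factor elsewhere, was called in Wildtype 1 alone (30.9% of merged regions were). Its peak covered the start of the gene (chr4:55527143-55532466, minus strand) over 1793 bp, with a fold of 2.81 and rank 8300 of 15962, the percentile being 48.0. In the other libraries the nearest peak was 176345 to 182768 bp away. The fold was the second highest of all 32 KLF peaks, after Klf7 in PDH_Mutant 1.

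Klf12, a CtBP-binding repressor with a gene of 414048 bp (chr14:99870632-100284679, minus strand), had no peak in any library. Its nearest peak was 770345 bp away in Wildtype 1 and 1192324 bp in PDH_Mutant 1, so it sat in a long stretch without calls in both groups.

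**Figure D4:**
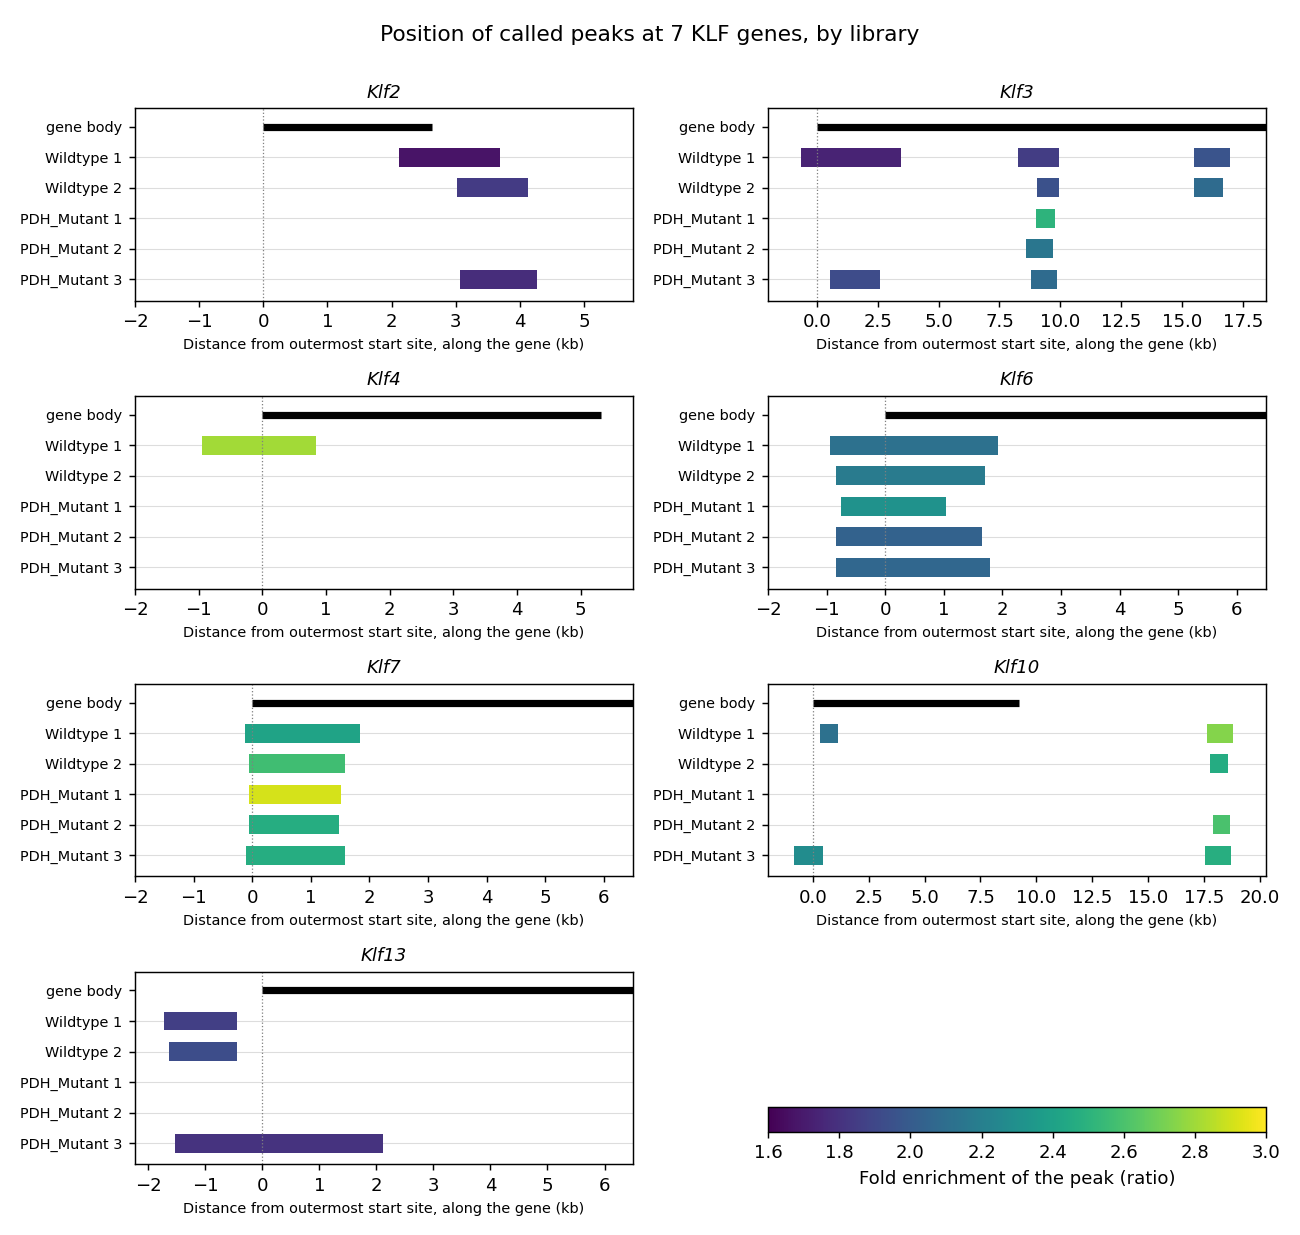
Called peaks (bars, 1 row per library) at the 7 KLF genes with a peak, by distance from the gene's outermost start along the gene (kb, horizontal axis), with the gene body in black and fold as colour. Klf6 and Klf7 show a bar at the start in all 5 libraries, the Klf2 bars lie at or past the gene end, Klf10 has bars past the gene end in 4 libraries and at or just past the outermost start in 2, and the third Klf3 bar is present in Wildtype 1 and 2 alone.

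By region the tally was 3 of 10 in all 5 libraries (16.8% of merged regions), and 0 of 10 in PDH_Mutant libraries alone (8.46%). The regions of all 5 libraries were those at the starts of Klf6 and Klf7 and at or just past the inner start of Klf3. Each region held at most 1 peak of a library.

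KLF peaks were wide and low for their lists. Of the 32 peaks, 26 were wider than the median of their own list, 25 were not above its median fold, and 21 were both. Widths ran from 750 to 4112 bp and folds from 1.67 to 2.91. Among all peaks within 3000 bp of a coding start, 48.1% to 51.5% were wider than their list's median, and only 18.8% to 22.5% were both wider and not above the median fold. By −log10 q, in contrast, 18 of 32 KLF peaks were above the median of the list. The shape held in both groups: the median KLF peak was 1629.5 and 1177 bp wide in wildtype against list medians of 1150 and 987 bp, and 1564, 1305 and 1511.5 bp in PDH_Mutant against 855, 896 and 1025.5 bp. Peaks of a gene in several libraries share their site, so the 32 are not independent, and no test was made.

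**Figure D5:**
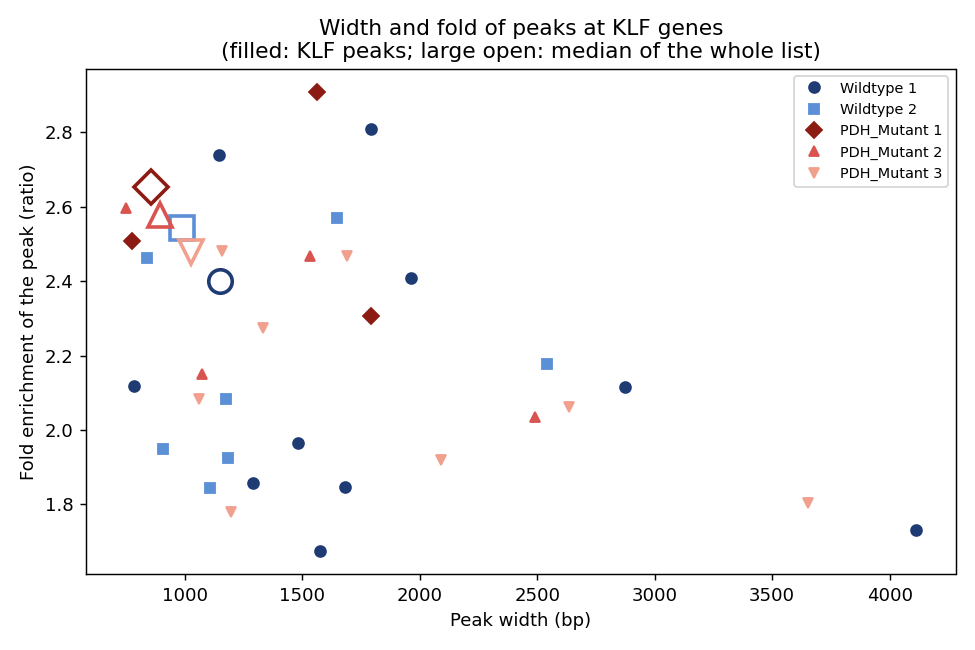
Width (bp, horizontal axis) and fold (ratio, vertical axis) of the 32 KLF peaks (filled, by library), with the median of each whole list as a large open symbol. Most filled points, 21 of 32, lie right of and not above the open symbol of their own list.

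For the genes called in all 5 libraries (Klf3, Klf6 and Klf7), the mean percentile of the strongest peak was 72.0 and 66.5 in wildtype and 77.2, 55.3 and 70.6 in PDH_Mutant lists. The group means were 69.3 ± 3.90 (n = 2) and 67.7 ± 11.2 (n = 3), a difference of 1.56 points (exact permutation p = 1, adjusted 1). PDH_Mutant libraries were both the highest and the lowest. Its sign turned to -1.20 without Wildtype 1 and to -4.65 without PDH_Mutant 2.

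Since the lists differ in length, the KLF genes were also read from the 4920 strongest peaks of each list, a cut that fell at a −log10 q of 5.88 and 2.87 in wildtype and 1.00, 1.46 and 3.29 in PDH_Mutant lists. The counts then nearly met, at 4 and 4 genes in wildtype and 3, 4 and 4 in PDH_Mutant lists (difference 0.333 genes), while 28% and 25.7% of coding genes had a peak in wildtype and 23.2%, 23.5% and 26.6% in PDH_Mutant lists. Klf6 and Klf7 were left in all 5 libraries, as were 13.1% of coding genes. Klf2 and Klf4 were left in none.

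At equal length, Klf13 was kept in both wildtype and no PDH_Mutant library, a pattern of 0.93% of coding genes, and Klf3 in all 3 PDH_Mutant and no wildtype library, a pattern of 0.492% of coding genes. Klf10 was kept in all but PDH_Mutant 1, where it had no call. Because the cut fell at a higher −log10 q in Wildtype 1 than in any PDH_Mutant list, being kept does not rank peaks by strength between groups. The strongest Klf3 peak had a −log10 q of 3.25 and 2.46 in wildtype and 3.22, 2.00 and 3.68 in PDH_Mutant lists, so the groups overlapped. That of Klf13 was 6.48 and 3.80 in wildtype and 3.05 in PDH_Mutant 3.

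Of 18 other genes of the KLF and related SP families, which bind similar GC-rich sequences, 11 and 7 had a peak in wildtype and 6, 5 and 7 in PDH_Mutant lists, beside 54%, 36.4%, 23.2%, 24.7% and 39.2% of coding genes. In all 5 libraries 5 were called (17.1% of coding genes were; Klf9, Klf16, Sp1, Sp2 and Sp3), with Sp1 between the 93.6 and 98.4 percentile and Klf16 between 91.8 and 97.5. Wildtype libraries alone had 4 (Klf8, Klf11, Sp6 and Sp7), each in Wildtype 1 only, the longest list. That list alone held 30.9% of merged regions, and the share of coding genes called there alone was not counted. Another 2 were called in part of both groups and 7 nowhere, as were 43.9% of coding genes. None was called in PDH_Mutant libraries alone, beside 1.3% of coding genes. Klf16 and Sp1 percentiles were above that of Klf7 in every library but PDH_Mutant 1.

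Of 6 genes tied to KLF2 in T cells, 6 and 3 had a peak in wildtype and 2, 2 and 4 in PDH_Mutant lists, an order that the shares over all coding genes also took. Those shares were 54% and 36.4% in wildtype and 23.2%, 24.7% and 39.2% in PDH_Mutant lists, and 17.1% of coding genes had a peak in all 5. The sphingosine receptor genes S1pr1, whose receptor guides exit from lymph nodes, and S1pr4 had a peak in all 5 libraries, S1pr4 at percentiles of 95.2 to 98.9. S1pr1, a direct KLF2 target, stood at 66.2 and 51.6 in wildtype and at 21.7, 11.2 and 69.1 in PDH_Mutant lists, which overlapped. The integrin gene Itgb7 and Foxo1, an activator of Klf2, were called in Wildtype 1 alone at percentiles of 14.4 and 10.6. Of merged regions, 30.9% were called in Wildtype 1 alone.

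Of 6 genes for cofactors of KLF proteins, 5 and 4 had a peak in wildtype and 3, 4 and 4 in PDH_Mutant lists, again fewest where the share of all coding genes was lowest. Those shares were 54% and 36.4% in wildtype and 23.2%, 24.7% and 39.2% in PDH_Mutant lists. The acetyltransferase genes Ep300, Crebbp and Kat2b were called in all 5 libraries, as were 17.1% of coding genes. Kat2b stood at 72.3 and 83.6 in wildtype and at 54.6, 61.0 and 54.7 in PDH_Mutant lists. Crebbp stood at 83.7 and 71.5 in wildtype and at 64.3, 67.8 and 49.4 in PDH_Mutant lists. Both were thus higher in each wildtype list than in all PDH_Mutant lists. The percentiles took that order in 29.5% of regions with a single peak in every library. That share is of regions, while the gene values are of the strongest peak in the window, for which no share was counted. Ep300 overlapped between the groups and was highest in PDH_Mutant 2 at 98.3. Ctbp1, the corepressor partner of KLF3 and KLF12, was called in Wildtype 1 alone (30.9% of merged regions were) at percentile 47.5. No gene of these lists was called in PDH_Mutant libraries alone, beside 1.3% of coding genes.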

How the data were processed

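ChIPseq of acetylated histones in TM cells was analysed from 5 peak lists (2 wildtype, 3 PDH_Mutant). The authors aligned reads to GRCm38/mm10 with BWA-mem 0.7.17, kept uniquely mapped reads with SAMtools 1.15.1 and called broad peaks per library with MACS2 2.2.6; no input control was named in the sources used here. The deposited lists give each peak a fold enrichment (a linear ratio), the authors' −log10 p and −log10 q values, and a score that was not used. Reads are not in the lists, so the DiffBind comparison was not repeated.

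Peaks were assigned to genes of GENCODE vM21 by at least 1 bp of overlap with the gene body and 10000 bp on each side, or with 3000 bp around any transcript start, and were ranked by −log10 q within their list. Peaks of all lists were merged into regions, and bedtools 2.31.1 gave the same 18410. Group means were compared by exact permutation tests over 10 arrangements of the libraries, two-sided as double the smaller one-sided p, with Benjamini-Hochberg adjustment. The work was done in Python 3.11.15 (scipy 1.17.1, pandas 2.3.3, numpy 2.4.6). On simulated lists, all 10000 gene and library pairs were assigned as made.

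All 8 KLF genes are named. Of the other KLF and SP genes, KLF2-related genes and cofactors, those called in all 5 libraries or in 1 group alone are named, along with the 3 genes nearest in rank to the strongest KLF gene. The members and lists were chosen with earlier results of these data known. Alternatives were lists cut to equal length, a floor on −log10 q (2 or 5) or on width (1000 bp), other windows, rank by fold, a replicate block and leaving out each library. Scaling to list length was added after seeing the data. RNAseq and ATACseq were not analysed here. Results for 1 marker list and 1 further sequence are not reported here.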

Additional observations from a re-analysis of the deposited data

How the results depend on the processing

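Differences are wildtype minus PDH_Mutant. With lists of equal length, the difference in KLF genes with a peak was 0.333, in peaks 0.14 (log2), in genes with a promoter peak 0, and in mean percentile -5.02 (then over Klf6 and Klf7). With the gene body alone, the gene difference was 0.833. Scaled to the list, an alternative chosen after seeing the data, the log2 differences were -0.0448 per 1000 peaks and -0.19 per Mb. Leaving out 1 library gave 1.5 to 3 for genes, 0.56 to 1.27 for peaks, 0.41 to 1.43 for length, 0.333 to 3.33 for promoter genes (lowest without Wildtype 1, highest without Wildtype 2) and -4.65 to 6.42 for the percentile, which was below 0 without Wildtype 1 (-1.20) or PDH_Mutant 2. In the other comparisons of these 5 results with an alternative, 52 in number, the direction held and the value moved by less than the spread between libraries. At a −log10 q of at least 5, PDH_Mutant 2 had no KLF peak left, so peaks, length and percentile had no value.

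With the replicate number as a block, which leaves out PDH_Mutant 3, the differences were 3 genes, 1.27 and 1.43 (log2) for peaks and length, 2.5 promoter genes and 3.02 percentile points. The numbers are not stated to pair libraries, and deviations of same-numbered libraries from their group means correlated at -0.07 and 0.05 over 3761 genes.

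The design allows no p under 0.2, and read depth, unknown here, limits which weak peaks a list holds.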
